A study of Mus musculus with 12 samples.

Results

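*Rab30*, a small GTPase gene of the Golgi apparatus, was examined together with all other Rab GTPase genes in term fetal livers with and without PPARα, the product of *Ppara* and a nuclear receptor that fatty acids activate. Members were all genes whose symbol in the probe table of the array is Rab followed by a number and at most a letter and a further digit, so that effectors and regulators with Rab in a longer name were left out. The rule found 59 genes among the 19938 genes measured, and all 59 were tested with no filter on dim signals. Whole livers came from 6 *Ppara*-/- and 6 *Ppara*+/+ mouse fetuses at embryonic day E19.5, the last day of pregnancy, delivered by cesarean section, 1 liver per array. Both genotypes descended from heterozygous parents and could share a litter, and the null allele is carried by every cell of the fetus and not by hepatocytes alone. The labels name the strain as SV129, whereas the methods of the study name C57BL/6. The labels do not tie a liver to its litter, and by the methods the livers of a genotype came from fewer litters than livers, so p-values may rest in part on littermates.

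Rab GTPases are molecular switches that cycle between a GDP-bound form in the cytosol and a GTP-bound form on a membrane. Guanine nucleotide exchange factors (GEFs) switch them on, GTPase-activating proteins (GAPs) switch them off, and the active form recruits effectors that move, tether or fuse vesicles. Each Rab marks certain membranes, and in the liver they serve the secretion of plasma proteins and lipoproteins, receptor recycling and the traffic to the bile-facing surface. *Rab30* is known as a Golgi Rab.

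All values are log2 signals as the authors deposited them, and a difference of 1 is a doubling. Differences are *Ppara*-/- minus *Ppara*+/+. Genes were tested with limma, a gene was called when its p, adjusted by Benjamini-Hochberg over all genes, was under 0.05, and adjusted p-values below are those of limma unless another test is named. *Ppara* itself averaged 9.83 ± 0.09 (SD, n = 6) in *Ppara*-/- and 10.84 ± 0.10 (SD, n = 6) in *Ppara*+/+ livers, a 2.01-fold lower signal with no overlap between genotypes (adjusted p = 3.6e-08). Where its probes lie relative to the deleted part of the gene was not analysed here. Array medians lay between 6.71 and 6.75, and precision is set by how many arrays there were. A sex score (*Xist* less the average of 3 Y-linked genes) was high, as in females, in 5 *Ppara*-/- and 3 *Ppara*+/+ livers. *Ppara*-/- mouse 1 lay near the *Ppara*+/+ livers for many genes that rose, and its value is given where it decides a result. Because whole livers were used, fewer cells of a type and less RNA per cell cannot be told apart.

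*Rab30* fell more than any other Rab gene. Its log2 signal was 10.51, 10.72, 10.33, 10.86, 10.44 and 10.39 in *Ppara*+/+ mice 1 to 6. It was 7.84, 7.29, 7.81, 7.48, 7.54 and 7.94 in *Ppara*-/- mice 1 to 6. The genotypes lay far apart, with 2.39 between the lowest *Ppara*+/+ and the highest *Ppara*-/- liver, so that any *Ppara*+/+ liver had at least 5.25 times the signal of any *Ppara*-/- liver. The means were 7.65 ± 0.25 (SD, n = 6) and 10.54 ± 0.20 (SD, n = 6), a difference of -2.89 (SE 0.11), or 7.43-fold lower in *Ppara*-/- livers (adjusted p = 1.7e-09). Among all 19938 genes this was number 7 by the size of the fall and number 3 by p, and 86 genes differed by over 1 in either direction. *Rab30* was put in front with this result known from earlier work on the same arrays, so its rank is a description. It was measured by a single probeset with 1 gene symbol, so no other probeset could be set beside it.

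The fall of *Rab30* was of like size in every subset of livers examined. Leaving out each liver in turn gave differences of -2.95 to -2.82. Within the 6 lowest animal numbers of the labels, which held 2 *Ppara*-/- and 4 *Ppara*+/+ livers, it was -3.04 (adjusted p = 9.2e-05), and within the 6 highest, with 4 *Ppara*-/- and 2 *Ppara*+/+ livers, -2.73 (adjusted p = 1.5e-04). With the sex score as a covariate it was -2.91 (adjusted p = 1.7e-08).

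**Figure D1:**
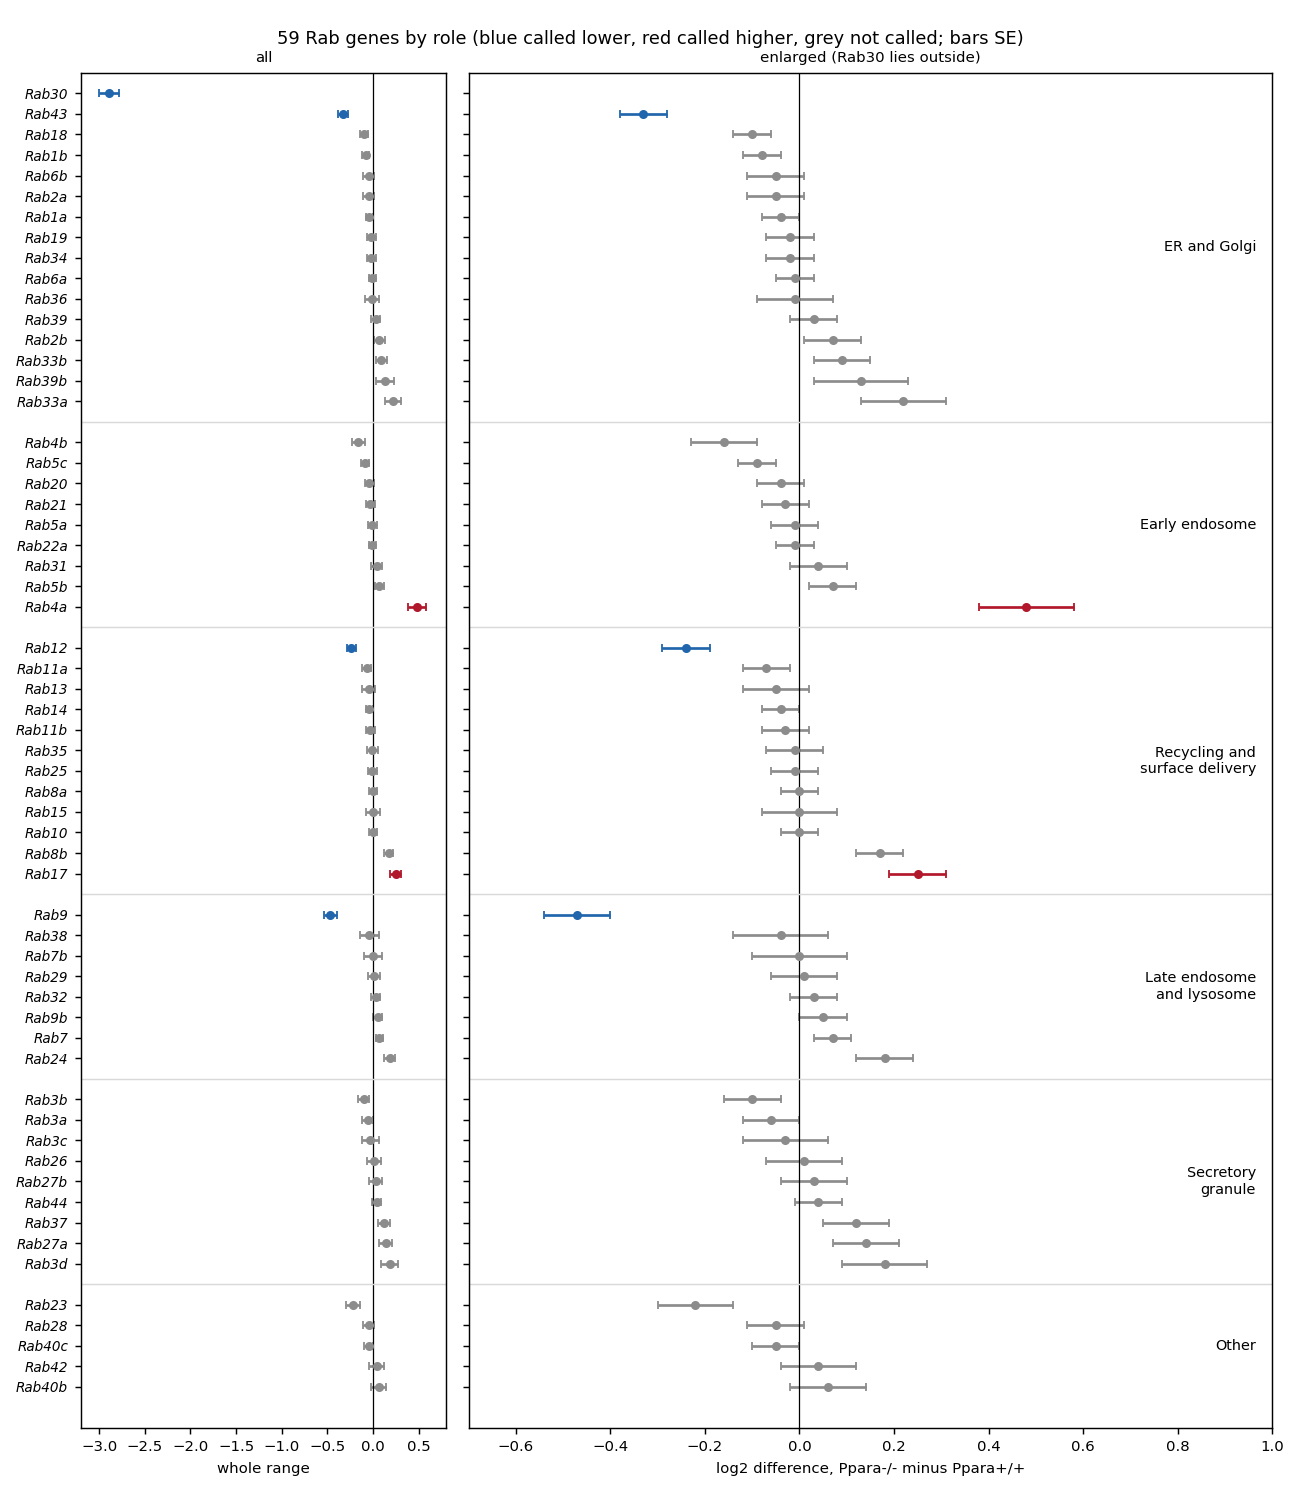
Log2 difference of each of the 59 Rab genes, *Ppara*-/- minus *Ppara*+/+, as points with bars of 1 SE, n = 6 livers per genotype, grouped by the membrane each Rab is known for. The left panel has the whole range and the right panel is enlarged. *Rab30* stands at -2.89 and every other member lies between -0.47 and 0.48.

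Of the 59 Rab genes 4 fell and 2 rose, and 53 were not called. *Rab30*, *Rab43*, *Rab9* and *Rab12* were lower, and *Rab4a* and *Rab17* higher. That is 10.2% of the members, beside 7.24% of all genes tested, of which 3.82% were called lower and 3.42% higher. Without *Rab30* it was 5 of 58, or 8.62%, close to the share over all genes. At an unadjusted p under 0.05 there were 14 Rab genes, 23.7%, beside 20.9% of all genes. The median difference of the family was -0.01, beside 0.01 over all genes, and the median size of a difference regardless of sign was 0.05, beside 0.07. Of the 58 members other than *Rab30*, 44 differed by under 0.1, 7 by 0.1 to 0.2 and 7 by 0.2 or more. Signs were negative in 35 members and positive in 24, a share of 59.3% negative beside 46.5% of all genes. Of the 59, 17 had a mean signal below the lowest array median, among them the brain-enriched *Rab3c* and *Rab39b*, and for such dim genes a small change in RNA may be compressed.

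The genotypes did not overlap in 4 members, *Rab30*, *Rab43*, *Rab9* and *Rab1b*, all lower in *Ppara*-/- livers. This was 6.78% of the family, beside 3.59% of all genes in either direction, 2.29% in this direction and 1.3% in the other. By the exact Mann-Whitney test 0 of the 19938 genes, members included, had an adjusted p under 0.05, and the smallest was 0.06. Of the members 12 had an unadjusted p under 0.05, as had 18.5% of all genes. *Rab1b* is named here although it was not called.

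The proximal promoters of the called members are shown because PPARα, paired with its partner RXR, binds direct repeats of the letters AGGTCA with 1 base between them. Each sequence is the 250 bases before an annotated transcription start in RefSeq, build GRCm38.p6, 5′ to 3′ on the strand of the gene, with any AGGTCA in capitals, which reads TGACCT when it lies on the other strand. *Rab43* (chr6:87812165-87812414, minus strand, the first of 4 annotated starts), *Rab9* (chrX:166479868-166480117, minus strand), *Rab12* (chr17:66519671-66519920, minus strand) and *Rab17* (chr1:90967668-90967917, minus strand) had an entry.
Rab43: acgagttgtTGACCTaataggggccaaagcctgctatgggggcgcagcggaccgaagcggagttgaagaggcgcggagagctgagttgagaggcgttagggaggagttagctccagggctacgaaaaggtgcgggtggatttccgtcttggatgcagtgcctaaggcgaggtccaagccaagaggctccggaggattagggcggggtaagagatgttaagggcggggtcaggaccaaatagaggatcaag
Rab9: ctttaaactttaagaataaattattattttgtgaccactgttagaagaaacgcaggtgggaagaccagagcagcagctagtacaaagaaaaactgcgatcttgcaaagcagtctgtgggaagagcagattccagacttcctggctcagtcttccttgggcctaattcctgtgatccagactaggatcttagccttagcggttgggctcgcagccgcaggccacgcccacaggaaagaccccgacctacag
Rab12: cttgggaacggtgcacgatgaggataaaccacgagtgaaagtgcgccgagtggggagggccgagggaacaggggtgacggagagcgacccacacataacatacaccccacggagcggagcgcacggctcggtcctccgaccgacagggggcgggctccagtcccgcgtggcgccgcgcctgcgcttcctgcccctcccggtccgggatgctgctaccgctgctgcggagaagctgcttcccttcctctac
Rab17: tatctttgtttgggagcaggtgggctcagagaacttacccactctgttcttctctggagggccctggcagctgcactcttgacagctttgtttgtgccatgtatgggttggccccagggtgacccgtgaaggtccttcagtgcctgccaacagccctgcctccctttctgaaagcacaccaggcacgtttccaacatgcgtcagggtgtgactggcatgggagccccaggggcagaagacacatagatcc
The printed window of *Rab43* held 1 such run of letters, on the opposite strand, the windows of its 3 other starts, of which 1 overlaps the printed window, held none, and the windows printed for *Rab9*, *Rab12* and *Rab17* held none. Windows were found for 48 of the 59 members. *Rab30* and *Rab4a* were among the 11 that had none. Over the 60 windows of the 48 members, 3 held the letters on either strand (*Rab43*, *Rab32* and *Rab31*), whereas 14% of all 32851 promoter windows of this length did. The full repeat AGGTCANAGGTCA was in 0 of the 60 windows and in 0.0335% of all windows. A match describes letters and not a binding site, and a missing match says only that these letters do not occur in this window.

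Among the Rabs of the endoplasmic reticulum and Golgi, 2 of 16 members fell and 0 rose, and the median difference of the group was -0.02. That is 12.5%, beside 7.24% of all genes, of which 3.82% were called lower and 3.42% higher. In role groups this small, 1 call more or less moves the share widely. Besides *Rab30*, the member called was *Rab43*, which serves traffic between the endoplasmic reticulum and the Golgi. *Rab43* was at 8.96, 9.05, 9.01, 9.06, 8.99 and 9.09 in *Ppara*-/- mice 1 to 6 and at 9.30, 9.45, 9.45, 9.22, 9.39 and 9.34 in *Ppara*+/+ mice 1 to 6. No *Ppara*-/- liver reached the lowest *Ppara*+/+ liver. The difference was -0.33 (SE 0.05), 1.26-fold lower (adjusted p = 7.4e-04).

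*Rab1b*, which works in the first step from the endoplasmic reticulum to the Golgi, ranged from 10.58 to 10.65 in *Ppara*-/- livers, with a median of 10.64, and from 10.65 to 10.81 in *Ppara*+/+ livers, with a median of 10.70. Before rounding the ranges did not touch, but the difference of -0.08 (SE 0.04) was not called (adjusted p = 0.23). Its paralog *Rab1a* differed by -0.04. The lipid droplet and reticulum Rab *Rab18* differed by -0.10 (SE 0.04, adjusted p = 0.23), and the retrograde Golgi Rab *Rab6a* by -0.01. *Rab2a* and *Rab2b*, of the traffic between reticulum and Golgi, differed by -0.05 and 0.07. *Rab33b*, a Golgi Rab linked to autophagy, differed by 0.09, and the dim *Rab33a* by 0.22 (SE 0.09, adjusted p = 0.17), the most positive value of the group. The fall of *Rab30* was thus far outside the range of the other Golgi Rabs, -0.33 to 0.22.

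**Figure D2:**
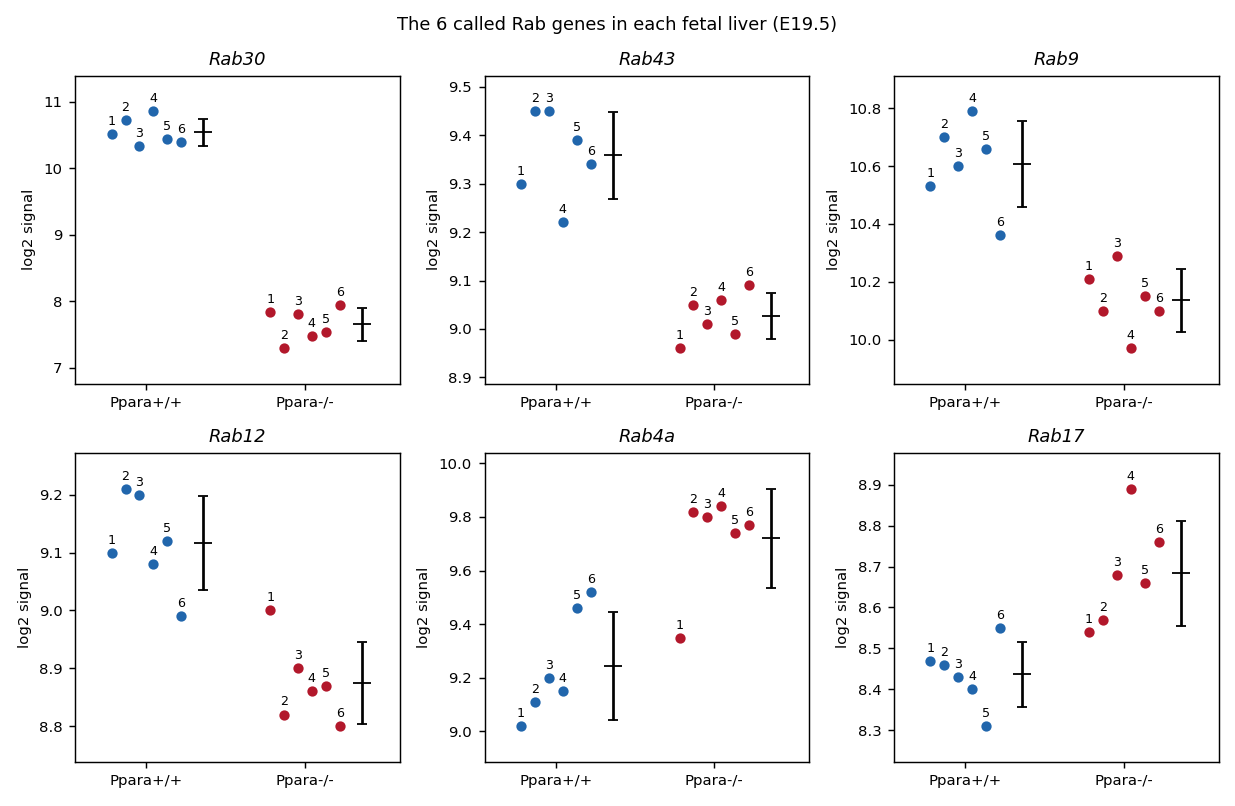
Log2 signal of the 6 called Rab genes in each liver, with the mouse number beside each point and the mean ± SD (n = 6 per genotype) beside each group, each panel on its own axis, which does not start at 0. The genotypes do not overlap for *Rab30*, *Rab43* and *Rab9*, and *Ppara*-/- mouse 1 lies within the *Ppara*+/+ range for *Rab12*, *Rab4a* and *Rab17*.

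Among the early endosome Rabs 1 of 9 members rose and 0 fell, or 11.1%, beside 7.24% of all genes, with a group median of -0.01. *Rab4a*, which returns receptors from early endosomes quickly to the cell surface, was at 9.35, 9.82, 9.80, 9.84, 9.74 and 9.77 in *Ppara*-/- mice 1 to 6. In *Ppara*+/+ mice 1 to 6 it was at 9.02, 9.11, 9.20, 9.15, 9.46 and 9.52. In 5 *Ppara*-/- livers it lay above every *Ppara*+/+ liver, and *Ppara*-/- mouse 1 lay inside their range. The difference was 0.48 (SE 0.10), 1.39-fold higher (adjusted p = 0.0094). When the model held a term for the 6 lowest against the 6 highest animal numbers it was 0.38 (adjusted p = 0.0092). Within the 6 lowest animal numbers alone it was 0.47 (adjusted p = 0.17), and within the 6 highest 0.30 (adjusted p = 0.085). The close relative *Rab4b* moved the other way by -0.16 (SE 0.07) and was not called (adjusted p = 0.17). The Rabs that fuse early endosomes, *Rab5a*, *Rab5b* and *Rab5c*, differed by -0.01, 0.07 and -0.09, and *Rab21* and *Rab22a*, of the same compartment, by -0.03 and -0.01.

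Among the 12 Rabs of recycling endosomes and delivery to the surface 1 fell and 1 rose, or 16.7%, beside 7.24% of all genes. *Rab12*, linked to the passage of the transferrin receptor from recycling endosomes to degradation, was at 9.0, 8.82, 8.90, 8.86, 8.87 and 8.80 in *Ppara*-/- mice 1 to 6. In *Ppara*+/+ mice 1 to 6 it was at 9.10, 9.21, 9.20, 9.08, 9.12 and 8.99. In 5 *Ppara*-/- livers it lay below every *Ppara*+/+ liver, and *Ppara*-/- mouse 1 lay just above *Ppara*+/+ mouse 6. The difference was -0.24 (SE 0.05), 1.18-fold lower (adjusted p = 0.0094).

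*Rab17*, an epithelial Rab of apical recycling and transcytosis, was at 8.54, 8.57, 8.68, 8.89, 8.66 and 8.76 in *Ppara*-/- mice 1 to 6. In *Ppara*+/+ mice 1 to 6 it was at 8.47, 8.46, 8.43, 8.40, 8.31 and 8.55. Again 5 *Ppara*-/- livers lay above every *Ppara*+/+ liver and *Ppara*-/- mouse 1 lay within their range. The difference was 0.25 (SE 0.06), 1.19-fold higher (adjusted p = 0.023). This call ended without *Ppara*-/- mouse 6 (adjusted p = 0.059) or *Ppara*+/+ mouse 4 (0.054), with the sex covariate (0.071) and when the model held a term for the 6 lowest against the 6 highest animal numbers (0.061).

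*Rab8b*, of traffic from the trans-Golgi to the surface, ranged from 10.19 to 10.37 with a median of 10.28 in *Ppara*-/- livers, and from 9.97 to 10.22 with a median of 10.11 in *Ppara*+/+ livers. Its difference of 0.17 (SE 0.05) missed the threshold (adjusted p = 0.06). *Rab10*, *Rab8a*, *Rab35*, *Rab25* and *Rab15* differed by 0.01 or less. *Rab11a* and *Rab11b*, which mark the recycling endosome, differed by -0.07 and -0.03, and *Rab14* by -0.04.

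Among the late endosome and lysosome Rabs 1 of 8 members fell and 0 rose, or 12.5%, beside 7.24% of all genes, and the group median was 0.02. *Rab9*, which returns mannose 6-phosphate receptors from late endosomes to the trans-Golgi, was at 10.21, 10.10, 10.29, 9.97, 10.15 and 10.10 in *Ppara*-/- mice 1 to 6. In *Ppara*+/+ mice 1 to 6 it was at 10.53, 10.70, 10.60, 10.79, 10.66 and 10.36. The genotypes did not overlap, and the difference was -0.47 (SE 0.07), 1.38-fold lower (adjusted p = 0.0012). *Rab9* lies on the X chromosome, and the genotypes held unlike numbers of females. With the sex score as a covariate the difference was -0.43 (adjusted p = 0.0053). *Rab7*, the main Rab of late endosomes and lysosomes, differed by 0.07 (adjusted p = 0.41). *Rab24*, linked to autophagy, ranged from 8.74 to 9.01 in *Ppara*-/- and from 8.63 to 8.85 in *Ppara*+/+ livers, a difference of 0.18 (SE 0.06) that missed the threshold (adjusted p = 0.071). *Rab32* and *Rab38*, of lysosome-related organelles, differed by 0.03 and -0.04.

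None of the 9 secretory granule Rabs was called, beside 7.24% of all genes. The group ranged from -0.10 (*Rab3b*) to 0.18 (*Rab3d*) with a median of 0.03. The smallest p of the group belonged to *Rab27a*, which docks granules at the plasma membrane, with a difference of 0.14 (SE 0.07, adjusted p = 0.25). Of the group 0 had an unadjusted limma p under 0.05, beside 20.9% of all genes. Of the 5 remaining members none was called either. *Rab23*, a negative regulator of Hedgehog signalling, ranged from 6.75 to 7.08 in *Ppara*-/- and from 6.91 to 7.34 in *Ppara*+/+ livers, a difference of -0.22 (SE 0.08, adjusted p = 0.095), and was the only one of the 5 with an unadjusted p under 0.05. *Rab28*, *Rab40b*, *Rab40c* and *Rab42* lay between -0.05 and 0.06.

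The calls of *Rab30*, *Rab43*, *Rab9*, *Rab12* and *Rab4a* were made in each of the 24 fits over all 12 livers or 11 of them. Some members were called only when a particular liver was left out. Without *Ppara*-/- mouse 1 *Rab24* (0.21, adjusted p = 0.014), *Rab8b* (0.19, adjusted p = 0.032) and *Rab3d* (0.24, adjusted p = 0.044) rose, so that 9 members were called, when 12.6% of all genes were. Without *Ppara*+/+ mouse 6 the count was again 9, with *Rab8b* higher (0.19, adjusted p = 0.032) and *Rab23* (-0.26, adjusted p = 0.045) and *Rab4b* (-0.20, adjusted p = 0.046) lower, when 9.92% of all genes were called. Without *Ppara*-/- mouse 3 *Rab23* was called (-0.27, adjusted p = 0.047).

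Paralogs that share a number were compared within each array, so that the overall signal of an array cancels. For each of 21 pairs the difference between the paralogs in a liver was compared between genotypes by a two-sided exact permutation test over all 924 splits of the 12 livers, which can give no p under 0.0022, with adjustment over the 21 pairs. The gap between *Rab4a* and *Rab4b* was 1.76 ± 0.25 (SD, n = 6) in *Ppara*-/- and 1.12 ± 0.29 (SD, n = 6) in *Ppara*+/+ livers, and it widened by 0.64 (SE 0.16, exact permutation p = 0.0065, adjusted p = 0.045). The gap between *Rab9* and *Rab9b* was 4.62 ± 0.17 and 5.14 ± 0.22 (SD, n = 6 each), and it narrowed by 0.52 (SE 0.11, exact permutation p = 0.0043, adjusted p = 0.045). *Rab9b* was dim, with means of 5.52 in *Ppara*-/- and 5.47 in *Ppara*+/+ livers, below the lowest array median of 6.71, so a change in it may be compressed. The gap between *Rab8a* and *Rab8b* was 0.73 ± 0.08 and 0.90 ± 0.07 (SD, n = 6 each), a change of -0.17 (SE 0.04, exact permutation p = 0.0065, adjusted p = 0.045). These pairs changed unequally, which does not show that either paralog stayed the same, and in all 3 the ranges of the genotypes overlapped. The other pairs, those of *Rab1*, *Rab3*, *Rab5* and *Rab11* among them, had adjusted exact permutation p-values of 0.17 to 0.82.

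**Figure D3:**
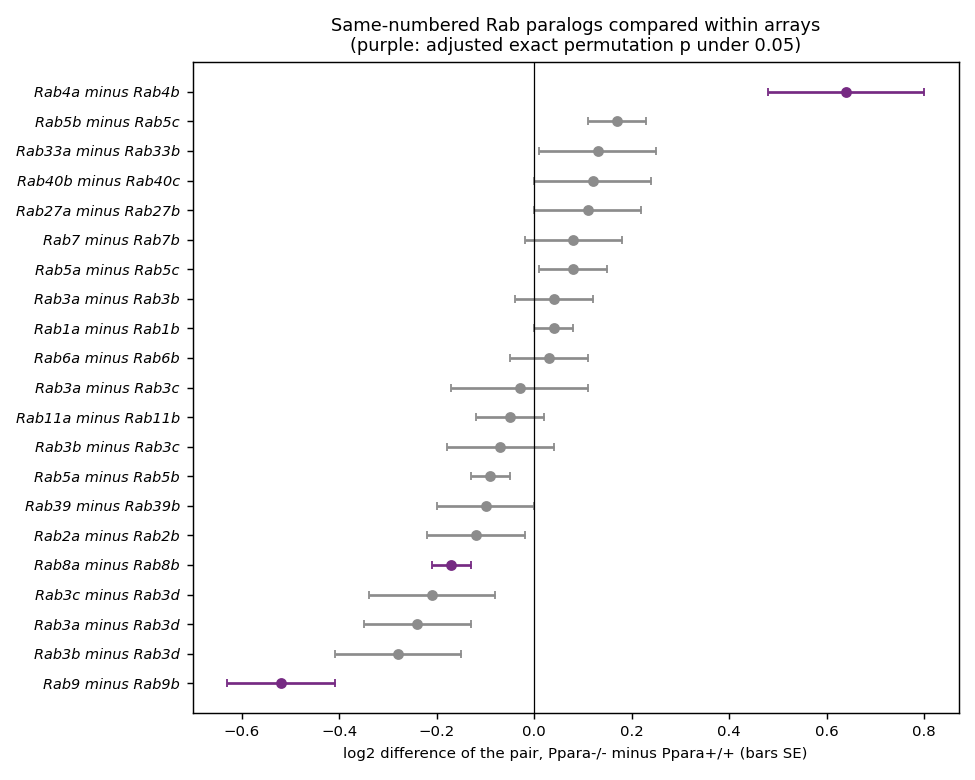
Change in the gap between same-numbered Rab paralogs, *Ppara*-/- minus *Ppara*+/+, in log2 units, for 21 pairs, as points with bars of 1 SE (n = 6 livers per genotype). *Rab4a* minus *Rab4b* (0.64), *Rab8a* minus *Rab8b* (-0.17) and *Rab9* minus *Rab9b* (-0.52) are the pairs with an adjusted exact permutation p under 0.05.

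The genes beside *Rab30* on chromosome 7 did not share its fall. The 3 nearest measured genes on each side, in the order of the gene table, were *Ankrd42*, *Pcf11* and *4632427E13Rik* on one side and *Ddias*, *Prcp* and *Fam181b* on the other, and 0 of the 6 were called, while 4632427E13Rik, Ddias and Prcp had an unadjusted limma p under 0.05. *Ddias*, an inhibitor of apoptosis after DNA damage, was at 7.45, 8.11, 8.20, 8.00, 8.16 and 8.28 in *Ppara*-/- mice 1 to 6 and between 7.55 and 7.79 in *Ppara*+/+ livers. In 5 *Ppara*-/- livers it lay above every *Ppara*+/+ liver and in *Ppara*-/- mouse 1 below them all. Its difference of 0.37 (SE 0.11) was opposite in sign to that of *Rab30* and missed the threshold (adjusted p = 0.059), but without *Ppara*-/- mouse 1 it was 0.49 (adjusted p = 1.1e-04). *4632427E13Rik* differed by 0.16 (SE 0.05, adjusted p = 0.07), and by 0.18 without *Ppara*-/- mouse 1 (adjusted p = 0.026). *Prcp*, a lysosomal carboxypeptidase, differed by -0.13 (adjusted p = 0.14), *Pcf11*, of transcript cleavage, by -0.09 (adjusted p = 0.39), and *Ankrd42* and *Fam181b* by -0.02 and 0.03.

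**Figure D4:**
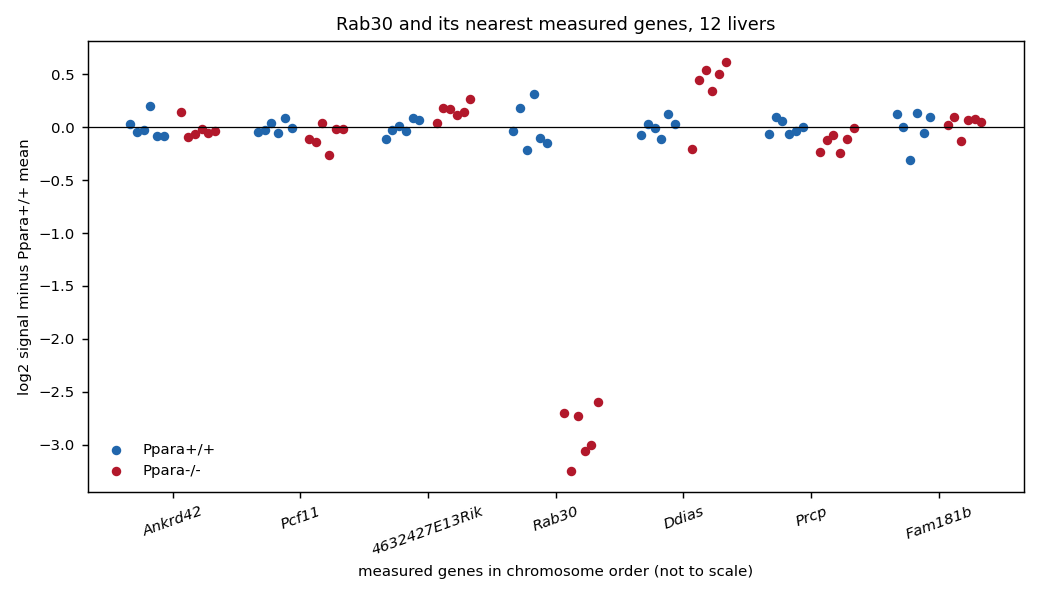
Log2 signal minus the *Ppara*+/+ mean in each of 12 livers for *Rab30* and the 3 nearest measured genes on each side, in chromosome order and not to scale. Points are single livers (n = 6 per genotype, mice 1 to 6 from left to right). Only the points of *Rab30* leave the range of the other genes shown, and *Ddias* in *Ppara*-/- mouse 1 lies below 0 while the other *Ppara*-/- livers lie above it.

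Of the genes that handle Rab proteins, 160 were measured, and 4 fell, 12 rose and 144 were not called, so that 10% were called, beside 7.24% of all genes (3.82% lower and 3.42% higher). At an unadjusted p under 0.05 there were 28.1%, beside 20.9% of all genes. Their median difference was 0.02. None of the 7 genes for GDI, which extracts Rabs from membranes, and for the prenylation that anchors them was called, and these ranged from -0.15 (*Rabggta*, a subunit of the Rab prenylating enzyme) to 0.21 (*Chml*, a Rab escort protein). These genes and *Rabac1*, which binds prenylated Rabs, were the 3 with an unadjusted limma p under 0.05.

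Of 47 GEF genes 3 fell and 2 rose, or 10.6%, beside 7.24% of all genes. *Dennd1b*, an exchange factor for Rab35, ranged from 8.53 to 8.72 in *Ppara*-/- and from 8.76 to 8.98 in *Ppara*+/+ livers, with no overlap and a difference of -0.29 (SE 0.05, adjusted p = 0.0028). *Dennd6b*, another DENN domain protein, differed by -0.25 (adjusted p = 0.0095), and *Rin2*, an exchange factor for Rab5, by -0.30 (adjusted p = 0.021). *Hps4*, a subunit of the exchange factor for Rab32 and Rab38, was at 8.10 in *Ppara*-/- mouse 1 and between 8.71 and 9.01 in the other *Ppara*-/- livers, against 8.03 to 8.21 in *Ppara*+/+ livers. Its difference was 0.61 (SE 0.12), 1.53-fold higher (adjusted p = 0.0055). *Trappc9*, of the TRAPP complex that acts on Golgi Rabs, differed by 0.38 (adjusted p = 0.014).

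Of 42 GAP genes 4 rose and 0 fell, or 9.52%, beside 7.24% of all genes, of which 3.42% rose and 3.82% fell. *Rab3gap2*, the non-catalytic subunit of the GAP for Rab3, was at 9.06 in *Ppara*-/- mouse 1. It was at 9.39 to 9.56 in the other *Ppara*-/- livers, against 8.93 to 9.09 in *Ppara*+/+ livers. Its difference was 0.36 (SE 0.07, adjusted p = 0.0064). The TBC domain genes *Tbc1d9*, *Tbc1d16* and *Tbc1d17* differed by 0.32 (adjusted p = 0.023), 0.23 (0.02) and 0.20 (0.04).

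Of 43 effector genes 4 rose and 1 fell, or 11.6%, beside 7.24% of all genes. *Rab11fip3*, a Rab11 effector, was higher by 0.45 (SE 0.09, adjusted p = 0.0092), *Sytl5*, a Rab27 effector, by 0.46 (SE 0.10, adjusted p = 0.016), *Rilpl2*, which binds Rab8 and Rab10, by 0.27 (adjusted p = 0.015), and *Ehbp1*, of the same Rabs, by 0.19 (adjusted p = 0.024). *Myo5b*, the motor that carries Rab11 vesicles, ranged from 8.09 to 8.27 in *Ppara*-/- and from 8.30 to 8.49 in *Ppara*+/+ livers, without overlap, and fell by 0.20 (adjusted p = 0.024).

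Of 21 Golgi tether genes 2 rose and 0 fell, or 9.52%, beside 7.24% of all genes. These were *Golga3*, golgin-160, with 0.33 (SE 0.08, adjusted p = 0.02), and *Golga2*, the cis-Golgi tether GM130, with 0.19 (SE 0.05, adjusted p = 0.035). The other tethers ranged down to -0.14 (*Cog5*, of the conserved oligomeric Golgi complex).

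The rises of these genes were carried by 5 of the 6 *Ppara*-/- livers. These were mice 2 to 6, whose animal numbers form an unbroken run with no *Ppara*+/+ liver in it. *Ppara*-/- mouse 1 was numbered between *Ppara*+/+ mice 1 and 2, and *Ppara*+/+ mice 5 and 6 above the run. *Rab4a*, *Rab17* and *Ddias* also lay above every *Ppara*+/+ liver in these 5 livers alone. The block of lowest and highest animal numbers splits the run, so it cannot separate run from genotype. Whether the run had a part in the rises was not tested. In all 12 genes of this machinery that rose, *Ppara*-/- mouse 1 was the *Ppara*-/- liver nearest to the *Ppara*+/+ mean, and in 11 of them, all but *Ehbp1*, it lay within the *Ppara*+/+ range. The other 5 *Ppara*-/- livers did not overlap the *Ppara*+/+ livers in 11 of the 12, all but *Rilpl2*. Among the 4 genes that fell, *Ppara*-/- mouse 1 lay within the *Ppara*+/+ range in none. Without *Ppara*-/- mouse 1 the number called went from 16 to 34, and without *Ppara*-/- mouse 4 to 10, while the share of all genes called went from 7.24% to 12.6% and 4.37%. With the sex score as a covariate 9 were called, beside 4.26% of all genes, and the calls of *Tbc1d9*, *Tbc1d16*, *Tbc1d17*, *Myo5b*, *Golga2*, *Golga3* and *Ehbp1* ended. For the first 6 of these the adjusted p was then 0.059 to 0.075. With the block of the lowest and highest animal numbers 12 were called, beside 4.69% of all genes, and *Tbc1d17* (0.092), *Myo5b* (0.061), *Golga2* (0.085) and *Ehbp1* lost their call. *Tbc1d17* also lost it with the mouse number as a term (0.061). Whichever liver was left out, *Hps4*, *Trappc9*, *Rab3gap2*, *Rab11fip3*, *Rilpl2*, *Sytl5*, *Dennd1b* and *Dennd6b* were called. *Tbc1d16* was called in 11 of the 12 comparisons that left out 1 liver, *Golga3* in 10, *Rin2* in 9, *Ehbp1* in 8, *Myo5b* in 7, *Tbc1d9* in 5, *Golga2* in 4 and *Tbc1d17* in 2.

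**Figure D5:**
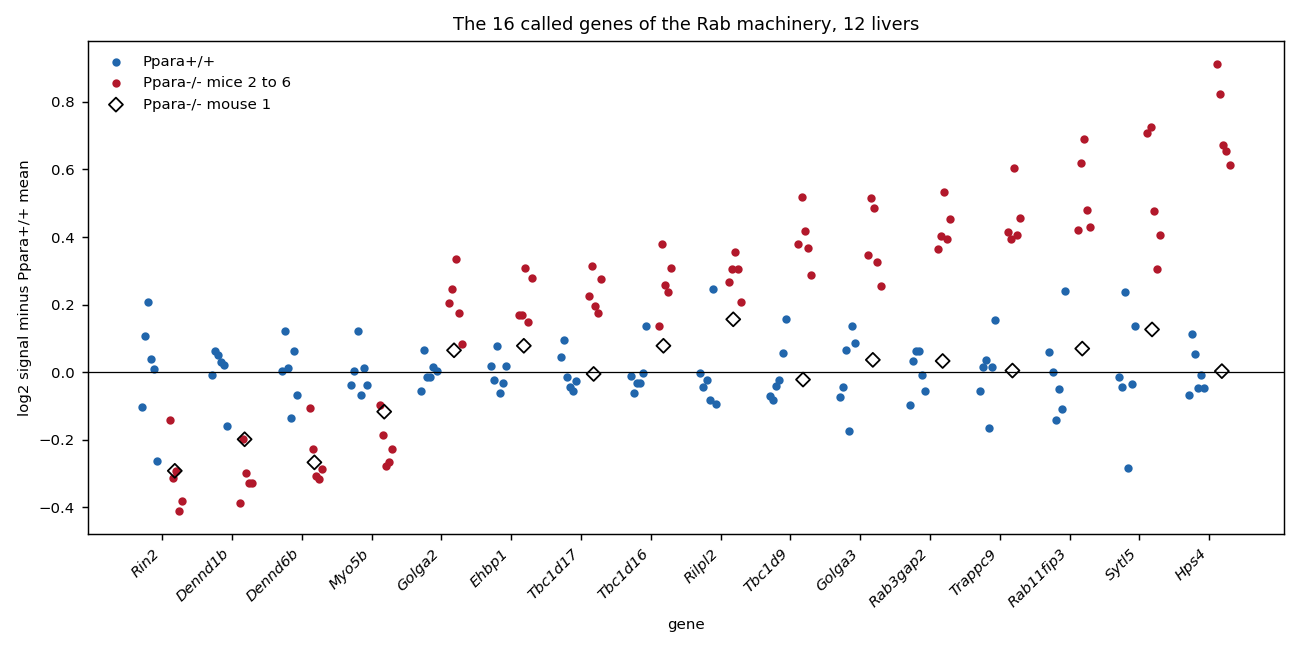
Log2 signal minus the *Ppara*+/+ mean of the 16 called genes of the Rab machinery in each of 12 livers, ordered by their difference. Points are single livers, and *Ppara*-/- mouse 1 is drawn as an open diamond. It lies within the *Ppara*+/+ range in 11 of the 12 genes that rose and outside that range in the 4 that fell.

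In the Arf family of small GTPases, which act at the Golgi and other membranes, 17 of the 29 listed genes were measured. Of these 17 genes 1 fell and 0 rose. That is 5.88%, beside 7.24% of all genes. At an unadjusted limma p under 0.05 there were 6 of the 17, beside 20.9% of all genes. *Arf2* was lower by 0.30 (SE 0.07, adjusted p = 0.028), a call made in 3 of the 12 comparisons that left out a liver, and lost with the sex score (adjusted p = 0.072) or the block of animal numbers (0.075) in the model. The most negative difference among the 17 measured was -0.30, against -2.89 for *Rab30*.

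Markers of the cell types of fetal liver were read beside the Rab genes. Of 8 hepatocyte markers 0 were called, and their mean log2 signal was 13.03 to 13.05 in *Ppara*-/- and 13.01 to 13.07 in *Ppara*+/+ livers. *Alb*, *Apoa1*, *Ahsg*, *Afp*, *Ttr* and *Fgb* had genotype means of 13.21 to 13.56, near the highest value on any array, 13.91. A change in genes this bright may be compressed, so their flat values do not show an unchanged share of hepatocytes. The less bright *Hnf4a*, at 11.38 in *Ppara*-/- and 11.44 in *Ppara*+/+ livers, differed by -0.06 (adjusted p = 0.38). Erythroid markers (6 measured), granulocyte and mast cell markers (13), megakaryocyte markers (6), endothelial markers (10) and cholangiocyte markers (5) had no call by limma. At an unadjusted limma p under 0.05, which 20.9% of all genes had, there were 3 granulocyte and mast cell and 3 endothelial markers. There were 0 of the hepatocyte, erythroid, megakaryocyte and cholangiocyte lists. The granulocyte and mast cell markers were *Ctsg* (0.18), *Prtn3* (0.14) and *Mcpt8* (-0.28). The endothelial ones were *Tek* (-0.21), *Clec4g* (-0.20) and *Stab1* (0.16), so both lists were mixed in sign. Of 11 macrophage markers 2 were called, 18.2% beside 7.24% of all genes, and 4 had an unadjusted p under 0.05. Those called rose, *Csf1r* by 0.23 (adjusted p = 0.0096) and *Cd5l* by 0.40 (adjusted p = 0.041). The others with an unadjusted p under 0.05 were *Cd68* (0.20, adjusted p = 0.13) and *Vsig4*, a receptor of liver macrophages (-0.25, adjusted p = 0.15). Of the rest, *Marco* differed by 0.14 and *Clec4f*, a lectin of liver macrophages, by -0.11. The median difference of the list was 0.04. The mean of the list was 9.13 to 9.30 in *Ppara*-/- and 9.10 to 9.21 in *Ppara*+/+ livers. Of 8 stellate cell markers 25% were called, as *Reln* rose by 0.16 (adjusted p = 0.034) and *Des* fell by 0.39 (adjusted p = 0.018), with list means of 9.20 to 9.39 and 9.14 to 9.39. The part of these cell types in the calls of the Rab genes was not tested.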

How the data were processed

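Whole livers of 6 *Ppara*-/- and 6 *Ppara*+/+ fetuses at E19.5 were profiled on Affymetrix Mouse Gene ST arrays, 1 liver per array. The deposited values are log2 signals from RMA, as the authors made them by a method that subtracts background, makes arrays comparable and combines the probes of each probeset, so small changes of dim genes may be compressed. For RMA no version, and for the arrays no genome build, is given in the sources used here. Of 35556 probesets 21789 had 1 gene symbol, 1621 several and 12146 none. The single-symbol probeset with the highest mean was taken per gene, which left 19938 genes. The 59 Rab genes had 62 probesets, of which 3 were not used. All 59 symbols were in the gene table of GRCm38.p6 and 0 changed. Values ranged from 1.95 to 13.91, and arrays correlated at 0.9882 to 0.9955, so no array was a copy of another. There is no read depth, and the number of arrays limits how precise a value is.

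Groups follow the genotype that each label gives. Differences were tested two-sided in R 4.3.3 by limma 3.58.1 (lmFit and eBayes, genotype alone in the model) and adjusted by Benjamini-Hochberg over all genes (threshold 0.05). Python 3.11.15, pandas 2.3.3, numpy 2.4.6 and matplotlib 3.10.9 were used for tables, exact permutation tests of paralog pairs and figures. The fit was tested on simulated arrays with known changes. The members, the lists of roles, machinery and markers, and the tests were chosen with earlier results of these data known. The genes named were *Rab30*, Rab genes called or without overlap, the member of each role group with the smallest p, the 3 nearest measured genes on each side of *Rab30*, at most 4 called genes per list of machinery or Arf GTPases, and *Ppara*. A further list of GTPases is not reported here. Other members and list genes are given for their group alone and were chosen after their values were seen. A comparison with the Rabs nearest to *Rab30* in protein sequence was planned and not run, since no protein sequence was used here.

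Alternatives changed 1 choice at a time, except that trend and robust settings of eBayes were changed together. For normalization, quantile normalization was repeated or array medians were aligned. Dim genes were removed below the 25th or the 50th percentile of mean signal. Probesets of a gene were averaged or each tested alone. In the model, eBayes used an intensity trend with robust settings, arrays were weighted, or terms were added for mouse number, for animal number (as a covariate, or as a block of the 6 lowest against the 6 highest) and for the sex score. The 6 lowest and the 6 highest animal numbers were also compared alone. The exact Mann-Whitney test was run, and each liver was left out once.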

Additional observations from a re-analysis of the deposited data

Results flagged for a closer look

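In 13 of 60 groups of 6 livers, for the 30 genes named, the highest or lowest liver stood apart from the others of its genotype by Dixon's test of the gap over the range. Chance flags about 1 group in 20. *Ppara*-/- mouse 1 was the liver that stood apart in 6 of the 13. It was the lowest *Ppara*-/- liver for *Rab4a* at 9.35 (others 9.74 to 9.84), *Hps4* at 8.10 (8.71 to 9.01), *Trappc9* at 8.06 (8.45 to 8.66), *Rab3gap2* at 9.06 (9.39 to 9.56) and *Ddias* at 7.45 (8.00 to 8.28), and the highest for *Ankrd42* at 5.98 (5.74 to 5.82). Among *Ppara*+/+ livers, mouse 6 stood apart for *Dennd1b* at 8.76, *Tbc1d16* at 8.13 and *Arf2* at 8.39, and mouse 5 for *Rab27a* at 8.55 and *Rilpl2* at 7.45. The remaining values were *Rab1b* at 10.58 in *Ppara*-/- mouse 5 and *Fam181b* at 6.37 in *Ppara*-/- mouse 3. *Rab30* had no liver that stood apart in either genotype. The cause was not tested.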

How the results depend on the processing

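The fall of *Rab30* and the calls of *Rab43*, *Rab9*, *Rab12* and *Rab4a* were kept in all 24 fits with all livers or all but 1. The 6 Rab genes called became 10 with array weights (13.8% of all genes called), 2 within the 6 lowest animal numbers, 1 within the 6 highest and 0 by the exact Mann-Whitney test, where *Rab30* (-2.89) had an adjusted p of 0.06, the smallest that test gave, and 12 Rab genes an unadjusted p under 0.05, beside 18.5% of all genes. In these sets of 6 livers 0.968% and 1.12% of all genes were called. Leaving out 1 liver gave 5 to 9 Rab genes, and -2.95 to -2.82 for *Rab30*. The 16 machinery genes became 26 with the filter at the 50th percentile (20.2% of the genes tested then called), 32 with array weights (13.8%), 0 and 2 within the lowest and highest animal numbers, 9 with the sex covariate (4.26%), 0 by the exact Mann-Whitney test, and 10 to 34 with 1 liver left out. The 0 neighbours of *Rab30* became 2 with repeated quantile normalization, either filter, an intensity trend with robust eBayes, weighted arrays, the replicate block or the animal number as covariate, and 0 to 2 with 1 liver left out (2 without *Ppara*-/- mouse 1). *Ankrd42* turned to 0.01 with the block of animal numbers, 0.04 within the highest animal numbers and 0.02 without *Ppara*+/+ mouse 4 (-0.06 to 0.02 with 1 liver left out), and *Fam181b* to -0.01 within the highest animal numbers and -0.04 without *Ppara*+/+ mouse 3 (-0.04 to 0.06 with 1 liver left out). The cause of these changes was not tested. Of 780 values of 29 single genes under other settings, 637 kept direction and side of the threshold, 119 lost and 19 gained a call, and 5 reversed. The 119 include every called gene among the 29 under the exact Mann-Whitney test, whose smallest adjusted p over all genes was 0.06. No gene could keep a call there, so those losses say nothing about a gene. The deviations of same-numbered mice of the genotypes correlated weakly (0.37, 0.09, 0.39, 0.02, 0.14 and 0.13), and not every one was over 0.1, so the number was not taken as a pairing. All 6 were above 0. With it as a replicate block 6 Rab genes, 19 machinery genes and 2 neighbours were called, *Rab30* differed by -2.89 (adjusted p = 3.9e-06), and 8.12% of all genes were called.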

Other observations

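The 3 Rab genes with a further single-symbol probeset could be read again from it. The second probeset of *Rab11b*, a Rab of recycling endosomes, differed by -0.07 (SE 0.06), beside -0.03 (SE 0.05) for the brighter one. For *Rab2a*, of traffic between endoplasmic reticulum and Golgi, the differences were -0.00 (SE 0.04) and -0.05 (SE 0.06), and for *Rab5b*, of early endosomes, 0.06 (SE 0.05) and 0.07 (SE 0.05). None of these was called with every probeset tested on its own, with limma adjusted p-values of 0.52 to 0.98.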
